A study of Homo sapiens and Mus musculus with 20 samples.

Results

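The aryl hydrocarbon receptor gene (AHR), the genes of its partner and repressor and 5 genes known as its targets were examined in chromatin accessibility maps of SW480 cells, an established human colorectal adenocarcinoma line. The 8 genes were AHR, ARNT, AHRR, CYP1A1, CYP1A2, CYP1B1, TIPARP and NQO1. Members were the accessible regions inside each gene body of the GENCODE annotation of GRCh38 or within 20 kb of it, and they numbered 142 of the 252173 regions obtained by merging the peak lists of 12 libraries. AHR held 39 of them, AHRR 54, TIPARP 15, CYP1A2 11, CYP1B1 10, NQO1 7, ARNT 4 and CYP1A1 2. No region lay at more than 1 of the 8 genes.

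The libraries were made by ATAC-seq, in which a transposase inserts sequencing adapters into open chromatin, from 50000 viable cells each by the Omni-ATAC protocol. The 4 groups of 3 libraries formed 2 experiments, each with its own untreated cells and dates: untreated cells against cells given 10 mM sodium propionate (NaPr), and untreated cells against cells given 1 mM sodium butyrate (NaBu), for 12 to 16 h. All 12 libraries came from 1 cell line grown with 10% serum, and the study asked how both short-chain fatty acids, which gut bacteria release from dietary fibre, alter the chromatin of colorectal cancer cells. No label says whether the 3 libraries of a group came from separate cultures, so the p-values measure only the spread between these libraries, which may be technical. The doses and dates differed between the experiments, so values for NaPr and NaBu are given side by side and were not tested against each other.

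AHR is a transcription factor that waits in the cytoplasm in a chaperone complex until it binds a ligand, among them dioxins, dietary indoles and tryptophan metabolites of gut bacteria. It then enters the nucleus, pairs with ARNT and binds DNA at elements with the core GCGTG. Its targets include enzymes that oxidise or detoxify foreign compounds and its own repressors, and in the intestine the pathway is known for its part in barrier function and in the clearance of ligands by CYP1 enzymes.

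Stretches of 4 start regions are shown, 3 because they carry clusters of the AHR core and that of NQO1 because it carries the element of the other factor that gene responds to. Each is written along the gene's own strand from GRCh38, and every one lies inside an accessible region of these cells. Capitals mark GCGTG or its reverse complement CACGC in the first 3, and in NQO1 the letters TGACTCAGC, in which an AP-1 string (TGACTCA) and an antioxidant response element (TGACNNNGC, the site of NRF2) overlap.
CYP1A1, chr15:74726418-74726647: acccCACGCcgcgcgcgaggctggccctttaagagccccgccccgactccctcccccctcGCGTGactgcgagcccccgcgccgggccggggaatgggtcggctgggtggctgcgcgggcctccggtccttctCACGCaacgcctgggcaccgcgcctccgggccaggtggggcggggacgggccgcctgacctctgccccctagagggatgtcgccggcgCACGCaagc
CYP1B1, chr2:38076966-38077195: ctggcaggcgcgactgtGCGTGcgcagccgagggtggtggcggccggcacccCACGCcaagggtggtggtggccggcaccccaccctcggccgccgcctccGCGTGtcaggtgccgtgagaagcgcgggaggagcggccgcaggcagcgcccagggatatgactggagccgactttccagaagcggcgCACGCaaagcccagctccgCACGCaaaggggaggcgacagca
TIPARP, chr3:156674264-156674493: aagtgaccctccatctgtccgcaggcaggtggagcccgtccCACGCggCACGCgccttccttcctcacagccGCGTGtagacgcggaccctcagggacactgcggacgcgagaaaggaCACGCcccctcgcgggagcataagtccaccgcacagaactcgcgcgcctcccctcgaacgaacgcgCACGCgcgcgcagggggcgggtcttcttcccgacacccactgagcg
NQO1, chr16:69726896-69727125: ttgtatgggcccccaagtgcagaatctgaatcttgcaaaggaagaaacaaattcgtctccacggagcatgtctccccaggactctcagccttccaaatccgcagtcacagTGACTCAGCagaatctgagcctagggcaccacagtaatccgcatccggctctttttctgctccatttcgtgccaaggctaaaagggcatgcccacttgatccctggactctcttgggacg

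The CYP1A1 window held 4 cores between 1119 and 890 bp before the start of the canonical transcript, the CYP1B1 window 5 between 1044 and 815 bp, and the TIPARP window 5 between 326 and 97 bp. Among 20033 canonical starts of protein-coding genes, 22% held at least 1 core in the window at the same distance as that of CYP1A1 and 0.13% held as many. The shares were 22.6% and 0.0449% for the CYP1B1 window, and 33.8% and 0.304% for the TIPARP window. The windows were placed where the cores cluster, so these shares describe them and are no test. The GC content was 77.4% in CYP1A1, 73.0% in CYP1B1, 69.1% in TIPARP and 52.6% in NQO1. The antioxidant element of NQO1 began 455 bp before the start, and 7.91% of the starts held such a string in the same window, with an AP-1 string in 2.84%.

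Away from the starts, 2 windows of 200 bp around the highest summit are shown because they lie in the region called at AHR with both compounds and in an AHRR intron whose peak was listed in each untreated library of the NaBu experiment and in no NaBu library. The same strings were sought on both strands, and neither window held any of them, so no letter is in capitals.
AHR, upstream, chr7:17274681-17274880: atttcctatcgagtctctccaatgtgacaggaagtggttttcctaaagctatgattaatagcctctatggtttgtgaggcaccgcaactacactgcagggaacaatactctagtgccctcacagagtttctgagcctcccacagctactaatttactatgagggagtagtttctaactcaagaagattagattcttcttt
AHRR, intron, chr5:411262-411461: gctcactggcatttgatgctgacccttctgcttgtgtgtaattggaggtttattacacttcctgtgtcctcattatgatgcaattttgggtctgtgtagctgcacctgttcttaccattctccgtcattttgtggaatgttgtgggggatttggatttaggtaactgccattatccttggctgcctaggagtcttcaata

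Over all 142 member regions, the core GCGTG was found in 30 of the 200 bp summit windows (21.1%), against 16.8% of all 252173 regions. The longer TNGCGTG, which contains the core, was found in 8 (5.63% against 2.62%), AP-1 (TGACTCA or TGAGTCA) in 16 (11.3% against 12.8%) and TGACNNNGC in 21 (14.8% against 10.5%). These are matches of letters on either strand and not measured binding.

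The deposited lists held 108442 to 144398 peak intervals per library, and 45 to 57 of the 142 member regions had a peak in a library of the NaPr experiment and 61 to 77 in one of the NaBu experiment. Depth was known only relatively, from the genome-wide background pileup recovered from the lists, which was 0.936 to 2.36 tags in the NaPr experiment and 2.11 to 3.03 in the NaBu experiment. The weakest listed peak had a −log10 p of 3.37 in one library and 9.38 in another, so a region without a peak may still hold one below the limit of that list. Of 10 genes that mark colon epithelium, 7 had a peak within 1 kb of a start in all 12 libraries, among them EPCAM and VIL1, while CDX1 had none. Of 10 markers of other lineages, 2 (CD14 and DES) had one in all 12 and 5 in none.

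The strength of a region in a library was its percentile rank by the −log10 p of its best peak among the regions tested in that experiment, from 0 where no peak was listed to 100 for the strongest. The weakest listed peak of a library stood at a percentile of 15.5 to 26.1, so entering a list alone adds that many points. A rank is not scaled by region length and is a level, whereas the differences given below are in percentile points between group means. Regions were tested where at least 2 of the 6 libraries of an experiment had a peak, with limma's moderated test (two-sided, with standard errors, SE), and were called where the Benjamini-Hochberg adjusted p over all regions was below 0.05. This left 60 of the 142 member regions tested with NaPr and 78 with NaBu, while 51 were tested in neither and 27 had a peak in all 12 libraries.

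The start regions came first. AHR itself was open in all 12 libraries, at chr7:17298203-17300008 over the start of the canonical transcript, its first exon and untranslated and coding sequence. Its rank was 97.6, 98.2 and 96.6 in the untreated and 94.7, 97.3 and 96.0 in the NaPr-treated libraries, and these ranges overlapped (−1.49, SE 0.779, limma adjusted p = 0.252). In the NaBu experiment it was 96.0, 96.2 and 94.7 untreated and 92.2, 93.4 and 93.0 treated. Every treated library was below every untreated one, a fall of 2.78 percentile points (SE 0.615, limma adjusted p = 0.0103), although with ranks by fold enrichment the difference was −0.11 and no longer called. The call was also lost without the eBayes trend (limma adjusted p = 0.19). Of 19 alternative settings the other 17 kept direction and call, among them summit tags over the genome-wide background and over the library median. Starts of ENSG00000237773 and ENSG00000283321 lie within 1 kb of the region, which overlaps both. The summit held 487, 312 and 323 tags untreated and 240, 231 and 234 with NaBu, counts that are not scaled for depth. The local background that the peak caller used there was 40.2, 24.6 and 26.2 tags untreated and 21.5, 16.2 and 17.2 with NaBu, also not scaled.

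AHRR, the repressor that competes with AHR for ARNT, had the start region with the largest called fall. At chr5:321044-322846 its rank was 88.2, 86.3 and 78.4 in untreated cells and 69.6, 66.9 and 70.4 after NaBu. The groups did not overlap, and the difference was −15.3 (SE 2.72, limma adjusted p = 0.00447). With NaPr the ranks were 85.3, 91.4 and 86.5 untreated and 73.6, 87.0 and 81.6 treated, which overlapped and was not called (−7.02, SE 3.01, limma adjusted p = 0.179).

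ARNT, the dimer partner of AHR, was open at its start (chr1:150875859-150877343) at ranks of 92.8 to 98.1 over the 12 libraries and was called in neither experiment (NaPr 2.16, SE 0.998, limma adjusted p = 0.21, and NaBu 0.98, SE 0.386, limma adjusted p = 0.0846). TIPARP, which encodes an ADP-ribosyltransferase that is induced by AHR and represses it, had the highest mean rank of the 8 starts in all 4 groups, 99.8 ± 0.0577 and 99.5 ± 0.231 (SD, n = 3) in untreated and NaPr-treated libraries and 97.0 ± 0.603 and 98.4 ± 0.321 in untreated and NaBu-treated ones. At chr3:156673789-156675820 the NaBu libraries stood at 98.6, 98.0 and 98.5 and the untreated at 96.4, 96.9 and 97.6, a rise of 1.45 (SE 0.456, limma adjusted p = 0.0396). That call was lost on leaving out any library but untreated replicate 3 (adjusted p 0.054 to 0.102), and the tags at the summit overlapped, with 537, 362 and 453 untreated and 422, 385 and 430 treated.

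The CYP1 genes encode cytochrome P450 enzymes that oxidise polycyclic aromatic compounds. The start region of CYP1A1 (chr15:74724538-74726708), which contains the window printed above, had ranks of 80.4, 79.6 and 79.3 in untreated and 85.9, 78.7 and 79.8 in NaPr-treated libraries, and 82.9, 79.1 and 80.2 in untreated and 83.6, 84.2 and 87.3 in NaBu-treated ones. The NaBu libraries were all above their untreated libraries, but neither difference was called (NaBu 4.34, SE 1.53, limma adjusted p = 0.0592, and NaPr 1.73, SE 2.12, limma adjusted p = 0.644). Without untreated replicate 1 the NaBu value was 5.55 with an adjusted p of 0.044. The start region of CYP1B1 (chr2:38076157-38077699), 6 bp before the canonical start and shared with the antisense gene CYP1B1-AS1, ranged from 84.1 to 93.0 in the NaPr experiment and from 77.3 to 84.6 in the NaBu experiment, with overlapping groups in both and no call (limma adjusted p = 0.179 and 0.822). CYP1A2, whose expression is typical of liver, had a peak near its start in 1 of 12 libraries, untreated replicate 1 of the NaPr experiment, with 6 tags, and was not tested there.

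NQO1, a quinone reductase that responds to both AHR and NRF2, was open at its start (chr16:69726187-69727336), which it shares with the divergent transcript NQO1-DT. Ranks were 96.4 to 99.3 in the NaPr experiment and 92.5 to 95.6 in the NaBu experiment, where all treated libraries (92.8, 92.5 and 93.4) were below the untreated (94.2, 95.6 and 93.6) without a call (−1.6, SE 0.668, limma adjusted p = 0.1). With ranks by fold enrichment the difference was −10.03 and called (limma adjusted p = 0.00876). In untreated cells of the NaPr experiment the mean ranks ran from TIPARP through NQO1 (98.1), AHR (97.5), ARNT (95.0), CYP1B1 (91.5) and AHRR (87.7) to CYP1A1 (79.8). The ranges of NQO1 and AHR overlapped, as did those of ARNT and CYP1B1 and of CYP1B1 and AHRR, while the other neighbours were apart. In untreated cells of the NaBu experiment the order was TIPARP, ARNT (96.8), AHR (95.6), NQO1 (94.5), AHRR (84.3), CYP1A1 (80.7) and CYP1B1 (80.1), with overlap between TIPARP and ARNT, between AHR and NQO1 between AHRR and CYP1A1 and between CYP1A1 and CYP1B1. After NaBu, AHRR (69.0) was below CYP1A1 (85.0) and CYP1B1 (80.9), and its range overlapped with neither.

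**Figure D1:**
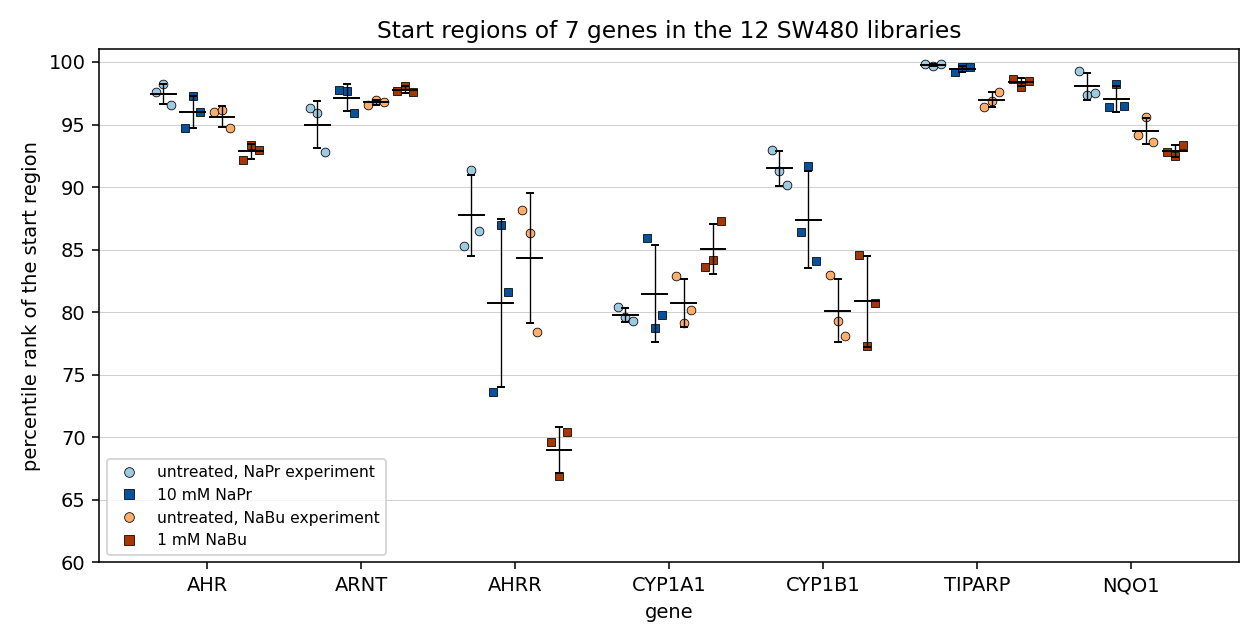
Percentile rank of the start region (vertical axis, percentile, drawn from 60 upward) of 7 genes in each of the 12 SW480 libraries; points are libraries, horizontal lines group means and bars the SD of 3 libraries. AHRR falls from 78.4 to 88.2 in untreated cells to 66.9 to 70.4 with NaBu, whereas TIPARP, AHR, ARNT and NQO1 stay at 92.2 or higher in every library.

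Over all member regions, 2 were called with NaPr and 36 with NaBu. With NaPr, 2 of the 60 tested regions were called higher (3.33%) beside 4.57% of all 124067 regions, and 0 were called lower beside 3.99%. By limma 13 of the 60 had an unadjusted p under 0.05 (21.7%, beside 25.4% of all regions), and the median difference was −1.12 against 0.02 over all regions. No member region was listed in every treated library while missing from every untreated one, beside 2.95% of all regions, and none showed the reverse, beside 1.5%.

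With NaBu, 19 of 78 were called higher (24.4%) beside 19.8% of all 123730 regions, and 17 were called lower (21.8%) beside 17.2%. A peak was gained, present in each treated library and missing from each untreated one, at 7 (8.97%) beside 6.41%, and lost at 4 (5.13%) beside 3.72%. The median difference was 0.5 against 0.71 over all regions. At those 7 and 4 regions one group is fixed at rank 0, and they passed the filter through the other group alone, so their calls follow from presence and absence and no difference or p is given for them. The other 25 calls were 12 higher and 13 lower. These shares were near the background, so the description below concerns the genes that the calls fell on. The 36 called regions of NaBu were 10 higher and 3 lower of 21 tested at AHR, 2 higher and 12 lower of 29 at AHRR, 3 higher and 1 lower of 6 at CYP1A2, 2 higher of 8 at TIPARP, 2 higher of 4 at NQO1 and 1 lower of 5 at CYP1B1. None of 3 at ARNT and of 2 at CYP1A1 was called. With the tags at the summit over the genome-wide background, which only regions with a peak in all 6 libraries allow, 7 of 47 member regions were higher with NaBu and 18 lower, where ranks gave 8 and 12 for regions with a peak in all 6. Over all regions the shares were 24% higher and 28.8% lower by tags, and 20.5% and 19.8% by ranks. On that scale AHR had 3 higher and 2 lower of 9 and AHRR 1 higher and 13 lower of 20. With NaPr, where the median over all regions was 0.21 on that log2 scale, it gave 5 higher and 0 lower of 30 (13.5% and 1.1% of all regions), and tags over the library median gave 4 higher and 7 lower (12.2% and 19.9% of all regions, median −0.05).

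**Figure D2:**
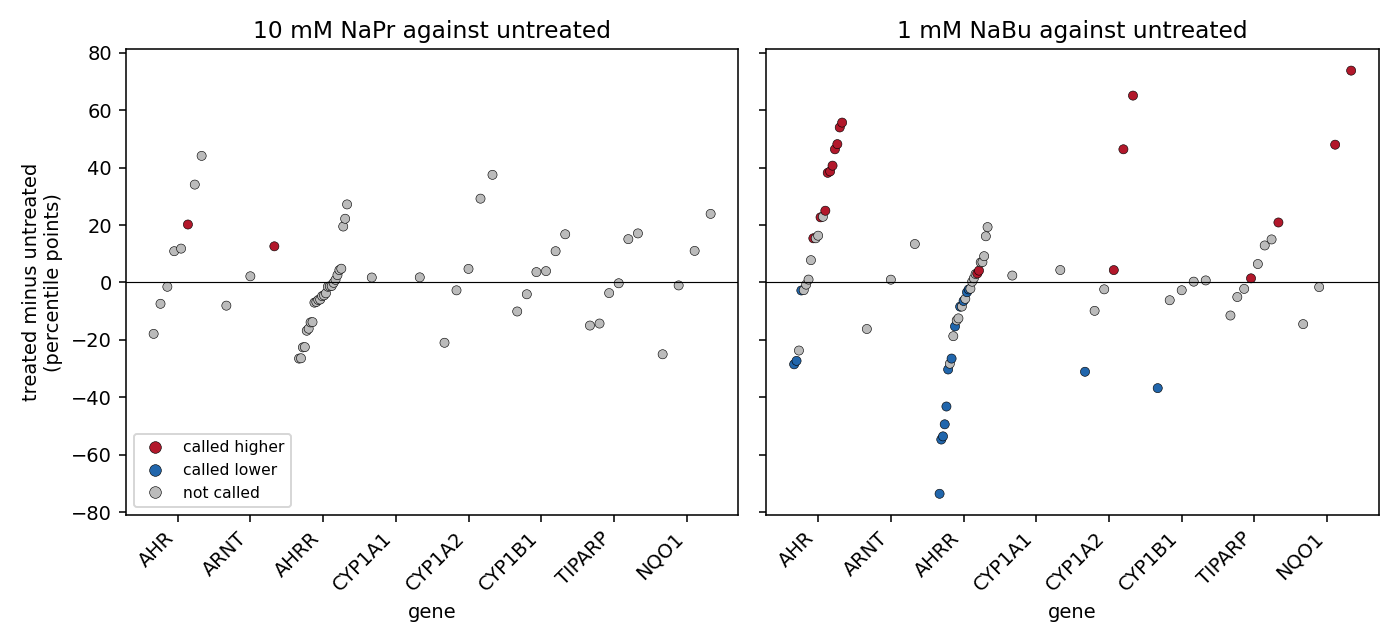
Treated minus untreated mean rank (vertical axis, percentile points) of every tested member region, 60 with 10 mM NaPr (left) and 78 with 1 mM NaBu (right), ordered by size within each gene; red points were called higher, blue lower and grey not called at a limma adjusted p of 0.05. NaPr has 2 red points, at AHR and ARNT, whereas with NaBu AHR has 10 red and 3 blue points and AHRR 2 red and 12 blue.

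AHR is a long gene in the annotation (chr7:16916359-17346152, plus strand), because the outermost of its 7 annotated starts lies far upstream of the canonical one. All 10 of its regions called higher with NaBu lay upstream of the canonical start, from 383552 to 23574 bp before it, as did 19 of the 21 regions tested. Of the 10, 6 had a peak in both groups, with differences from 15.4 to 46.4. Several of the 10 also overlap ENSG00000237773 or are intergenic, so those cannot be assigned to AHR alone. The region nearest to the start (chr7:17274257-17275078), intronic in the long transcript and in the overlapping ENSG00000237773, was called with both compounds. Its ranks were 45.7, 55.8 and 62.7 untreated and 74.2, 77.4 and 73.1 with NaPr, and 66.5, 55.6 and 60.5 untreated and 85.7, 84.2 and 87.9 with NaBu. Treated and untreated libraries did not overlap in either experiment, with a rise of 20.2 for NaPr (SE 4.89, limma adjusted p = 0.0354) and of 25.0 for NaBu (SE 2.98, limma adjusted p = 0.00102). The summit held 8, 18 and 26 tags against 21, 30 and 41 with NaPr, and 55, 28 and 37 against 92, 92 and 107 with NaBu. The NaPr call was lost on leaving out any 1 of the 6 libraries, with differences of 16.8 to 25.3 and adjusted p of 0.0604 to 0.11, whereas the NaBu call held without each library, at adjusted p up to 0.0094.

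Upstream of AHR, 4 regions were without a peak in untreated cells of the NaBu experiment and had one in each of the 3 treated libraries. At chr7:17099248-17100180, 198472 bp before the start, the treated ranks were 62.8, 52.5 and 51.8 from 43, 36 and 34 tags. The regions 91752 bp (47.9, 57.9 and 56.4), 331850 bp (52.6, 60.9 and 31.0) and 154932 bp (34.3, 38.6 and 49.3) before the start did the same. Those 198472, 154932 and 91752 bp before the start also lie in ENSG00000237773, so they cannot be assigned to AHR alone. None of the 4 regions was tested with NaPr, where 1 library had a peak of 7 tags at one of the 4 and the other libraries had none at any. An intergenic region 383552 bp before the start, 1259 bp from the outermost annotated start of AHR, had ranks of 0, 51.0 and 46.5 untreated and 79.8, 83.2 and 73.7 with NaBu (46.4, SE 12.4, limma adjusted p = 0.0218). Its call was lost without any 1 treated library (adjusted p 0.0594 to 0.0811). The same held with ranks by fold enrichment (limma adjusted p = 0.128), with regions of at least 1 peak (0.0669) and without the eBayes trend (0.0697). One 243852 bp before the start, also in ENSG00000237773, had ranks of 39.8, 27.6 and 0 against 60.8, 61.9 and 60.7 (38.7, SE 9.58, limma adjusted p = 0.016). That call was lost without NaBu replicate 2 or 3 (adjusted p = 0.0524 and 0.0501), with ranks by fold enrichment (0.053) and with regions of at least 1 peak (0.0566).

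The strongest AHR region outside the start (chr7:17233834-17235124), 63528 bp upstream, was not called by its ranks in either experiment. It stood at 92.2, 90.7 and 92.7 untreated and 92.6, 93.8 and 92.2 with NaBu (1.01, SE 0.753, limma adjusted p = 0.31), and at 74.2, 55.8 and 73.4 against 76.5, 77.3 and 82.4 with NaPr, which did not overlap (10.9, SE 4.65, limma adjusted p = 0.175). By tags over background it was called higher with NaPr (1.00 on the log2 scale, limma adjusted p = 0.00489). The 3 AHR regions called lower with NaBu were the start region, one 319577 bp upstream and one 8416 bp past the start, with differences from −28.5 to −2.78.

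At AHRR (chr5:321714-438291, plus strand) the calls ran mostly the other way, with 12 lower against 2 higher, and differences from −53.6 to −2.41 at the 9 lower ones with a peak in both groups. Among these 9, chr5:442221-444213 (−8.42, SE 1.69, limma adjusted p = 0.0072) lay past the end of AHRR. It overlapped EXOC3 and EXOC3-AS1 near their starts, so it cannot be assigned to AHRR. One region in an intron 89487 bp past the start (chr5:411201-411494) was at 70.0, 74.9 and 75.9 in untreated cells and had no peak in any NaBu library. The region beside it (chr5:411716-412135) went from 64.5, 76.5 and 71.4 to 22.1, 25.5 and 35.0 (−43.2, SE 5.49, limma adjusted p = 0.00127). That call held without each library. A region close by, 86773 bp past the start, was lower by 30.3 (SE 9.31, limma adjusted p = 0.0362) and lost its call without any library but NaBu replicate 3 (adjusted p 0.0692 to 0.0963).

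Another 3 lay 18341 to 19985 bp before the AHRR start, inside introns of the neighbouring gene PDCD6 and of the read-through PDCD6-AHRR, so they cannot be assigned to AHRR alone. At chr5:302746-303373 the ranks were 84.3, 83.2 and 85.5 untreated and 21.0, 19.2 and 51.9 with NaBu (−53.6, SE 8.39, limma adjusted p = 0.00274), and the summit held 202, 130 and 170 tags against 22, 23 and 40. At the other two the untreated ranks were 60.1, 49.2 and 54.8 and 49.4, 43.0 and 55.9, and no NaBu library had a peak. In the NaPr experiment only the first of the 3 was tested, at 43.2, 0 and 24.4 untreated and 0 in all 3 treated libraries, and it was not called. It passed the filter there through the untreated libraries alone, so no difference or p is given.

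The local background that the peak caller used differed between the groups at some of these AHRR regions, at the AHRR start and, as given above, at the AHR start. At the AHRR start it was 62.8, 40.3 and 37.7 tags untreated and 32.7, 24.1 and 24.1 with NaBu, not scaled for depth. At chr5:302746-303373 it was 18.7, 12.8 and 15.9 tags untreated and 4.3, 4.41 and 4.69 with NaBu, not scaled for depth. At chr5:411716-412135 it was 29.3, 21.5 and 23.9 untreated and 16.0, 14.6 and 17.3 with NaBu. At the 3 regions with no NaBu peak it was 18.6 to 30.5 tags in untreated libraries, 8.4 to 10.1 times the genome-wide background. The peaks there stood only 2.99 to 5.97-fold above it. At the AHR region 23574 bp upstream it was 1.0 to 1.37 times the genome-wide background and the fold was 9.32 to 25.0. It was raised at the AHR start too, 6.56 to 13.3 times, with a fold of 10.7 to 13.5. At the AHRR start the fold was 6.18, 5.78 and 5.04 untreated and 4.24, 4.77 and 5.06 with NaBu, which overlapped, and the call held in all 19 alternatives. With ranks by fold enrichment over the local background, 2 of 29 AHRR regions were called higher with NaBu and 7 lower. At AHR 7 of 21 were then higher and 2 lower. At all 8 genes 14 of 78 were higher and 13 lower, beside 13.3% and 13.8% of all regions. The part of a broad raised background in the AHRR calls and in that of the AHR start was not tested. The strongest AHRR region outside the start (chr5:430250-431651), 108536 bp past it, rose from 96.2, 95.6 and 96.4 to 99.1, 99.3 and 99.2 with NaBu (3.14, SE 0.398, limma adjusted p = 0.00127), a call lost in 1 fit of 12 libraries (adjusted p = 0.0643) and without the eBayes trend (adjusted p = 0.155). Its NaPr values of 87.9, 92.3 and 92.3 against 91.0, 94.9 and 94.3 overlapped (2.58, SE 1.41, limma adjusted p = 0.268).

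**Figure D3:**
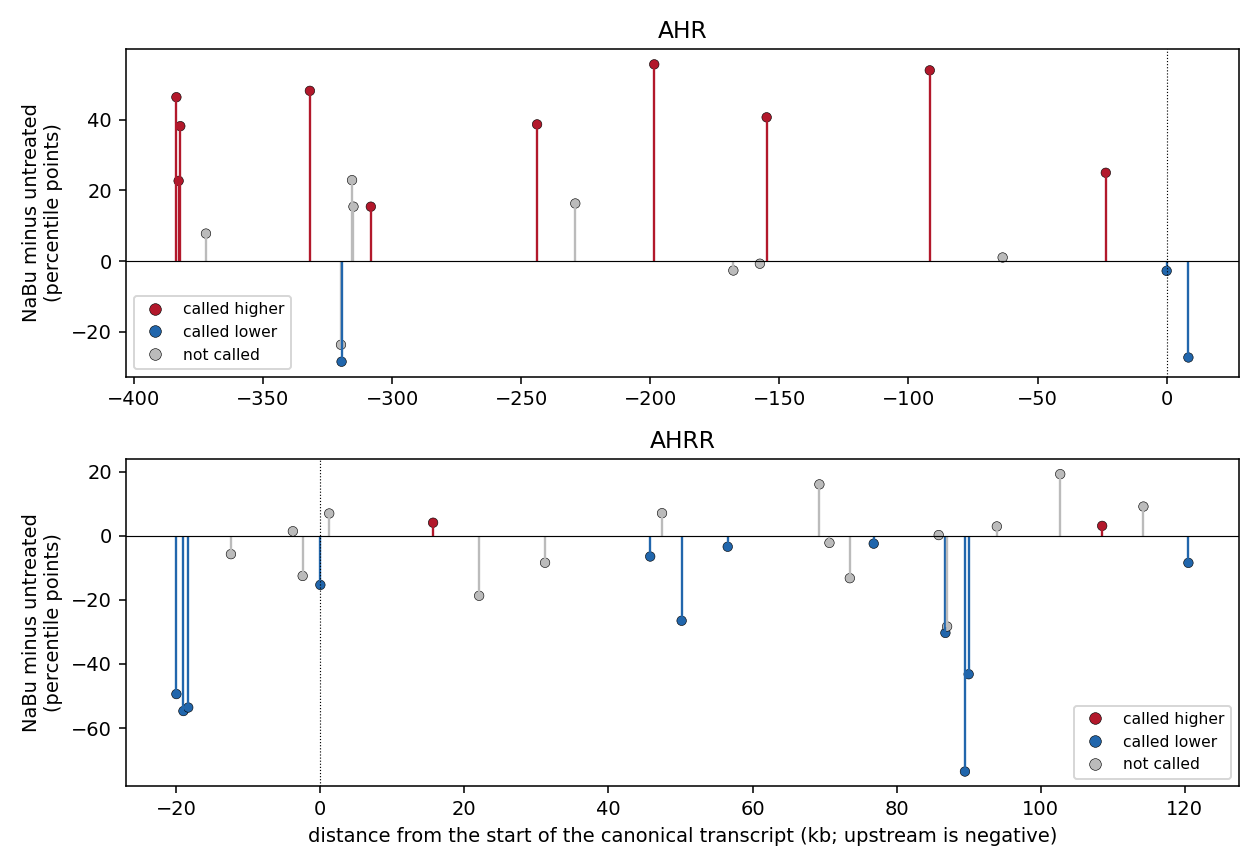
NaBu minus untreated mean rank (vertical axis, percentile points) of the 21 tested AHR regions (top) and the 29 tested AHRR regions (bottom) against distance from the canonical start (horizontal axis, kb, upstream negative); red points were called higher, blue lower and grey not called. The 10 red AHR points all lie upstream of the start, and the lowest blue AHRR point, in the intron 89487 bp past the start, is a region with no NaBu peak, drawn against a treated rank of 0.

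NQO1 (chr16:69706996-69726668, minus strand) gained a region in its own intron. At chr16:69723735-69724333, 2227 bp past the start, no untreated library of the NaBu experiment had a peak and the NaBu libraries ranked 75.1, 77.7 and 68.6 with 113, 130 and 103 tags. With NaPr the ranks were 0 in all 3 untreated and 43.8, 0 and 27.8 in the treated libraries, which was not called. There the region passed the filter through the treated libraries alone, so no difference or p is given. Its local background with NaBu was 6.58 to 6.84 times the genome-wide one, and the fold was 5.71 to 7.39. A region 19245 bp upstream of NQO1, in an intron of the neighbour NOB1, went from 0, 31.0 and 21.1 to 67.8, 63.3 and 65.1 with NaBu (48.0, SE 8.01, limma adjusted p = 0.00351), and this call held without each library. With NaPr the same region stood at 54.7, 45.5 and 52.6 untreated and 64.6, 62.9 and 58.4 treated, which did not overlap and was not called by ranks (11, SE 5.6, limma adjusted p = 0.243). By tags over background it was called higher (0.77 on the log2 scale, limma adjusted p = 0.0441), a scale on which the median over all regions was 0.21. By tags over the library median it was not called.

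CYP1A2 (chr15:74748845-74756607, plus strand), with 1 peak near its start in the 12 libraries, had its calls in the intergenic sequence beyond its end. At chr15:74759959-74760880, 11114 bp past the start, the untreated libraries of the NaBu experiment had no peak and the treated ranked 66.4, 58.8 and 70.0. The NaPr libraries ranked 67.9, 64.4 and 59.3 there against 33, 0 and 46.2 untreated, which did not overlap and narrowly missed the threshold (37.5, SE 11.5, limma adjusted p = 0.0716). A region 24954 bp past the start, with no untreated peak, had ranks of 57.6, 36.1 and 45.6 with NaBu. Between them, at 13417 bp and with 3 cores GCGTG in its summit window, a region went down from 73.0, 74.0 and 73.3 to 39.6, 44.8 and 42.3 (−31.1, SE 3.5, limma adjusted p = 0.000844), so neighbours moved in opposite directions. The region 21955 bp past the start was at 83.5, 84.0 and 87.6 untreated and 88.8, 88.9 and 90.3 with NaBu (4.32, SE 1.24, limma adjusted p = 0.0286). That call was lost without any library but untreated replicate 3 (adjusted p 0.0616 to 0.102) and its sign turned with ranks by fold enrichment (−1.22).

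CYP1A1 (chr15:74719542-74725536, minus strand) had 2 regions, both with a peak in all 12 libraries and neither called by its ranks over all libraries. The one outside the start, 1304 bp into the gene, ranked 77.5, 84.1 and 84.1 untreated and 85.2, 84.8 and 82.9 with NaBu (2.42, SE 1.94, limma adjusted p = 0.345). At CYP1B1 (chr2:38066973-38109902, minus strand) the 1 call was at the outermost annotated start, 33710 bp before the canonical one (chr2:38109861-38110239), where untreated ranks of 27.1, 34.2 and 49.0 stood against no NaBu peak. The summit there held 20, 17 and 27 tags, near the limit of the lists, and the call was lost with percentiles taken among listed peaks. At TIPARP (chr3:156673235-156706770, plus strand) a region 36964 bp past the start rose from 42.6, 29.9 and 44 to 53.9, 63.2 and 62.1 with NaBu (20.9, SE 5.56, limma adjusted p = 0.0211). That call was lost without NaBu replicate 2 or 3 (adjusted p = 0.0719 and 0.0707). It was also lost by limma with ranks by fold enrichment (adjusted p = 0.0812), in the top 50000 intervals (0.154), with 1 common limit of p (0.0603) and in 1 fit of 12 libraries (0.299).

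ARNT (chr1:150809713-150876708, minus strand) held the other region called with NaPr, 18905 bp upstream in an intron of CTXND2 (chr1:150895504-150896023). Ranks rose from 70.6, 72.3 and 80.1 to 86.7, 86.4 and 87.6 (12.6, SE 2.44, limma adjusted p = 0.0177), with 17, 32 and 55 tags against 35, 44 and 75. Leaving out any library but untreated replicate 3 ended the call (adjusted p 0.0601 to 0.0817). With NaBu the ranks of 43.0, 27.6 and 35.6 against 40.0, 48.8 and 57.5 overlapped (13.4, SE 6.56, limma adjusted p = 0.143).

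**Figure D4:**
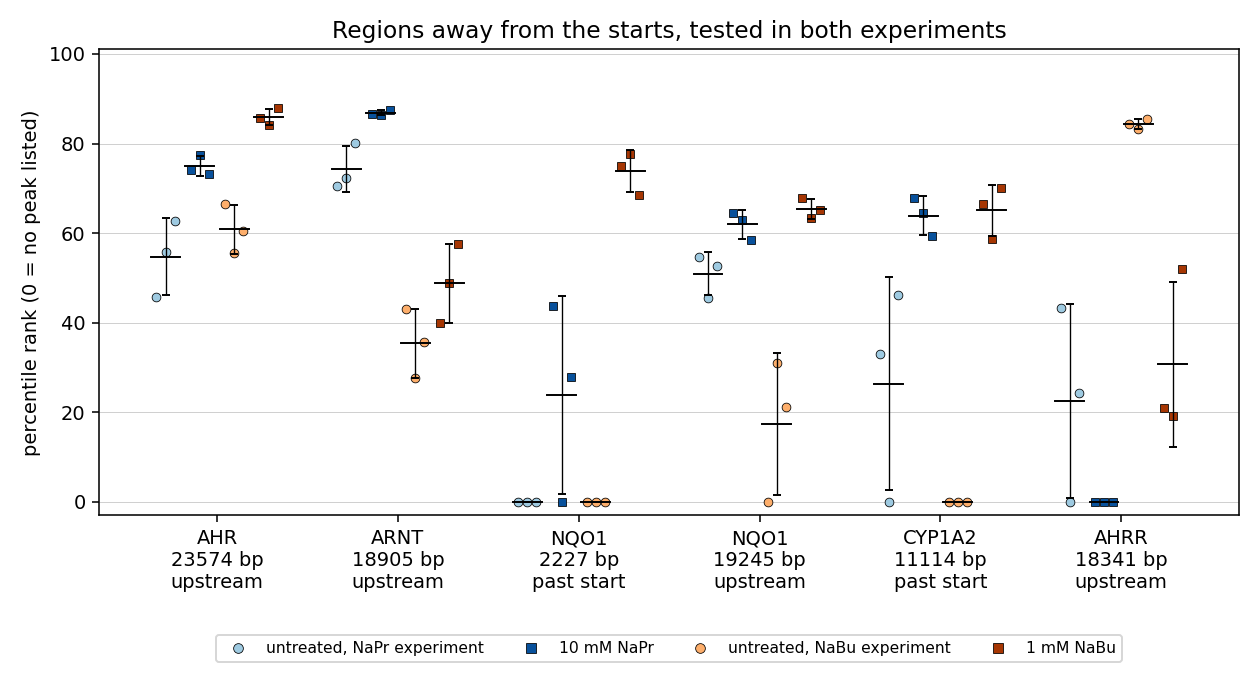
Percentile rank (vertical axis, 0 where no peak was listed) of 6 regions away from the canonical starts, each named by its gene and its distance from the start, in the 12 libraries; points are libraries, horizontal lines group means and bars the SD of 3 libraries. The AHR region is higher in treated cells of both experiments, the NQO1 intron and the CYP1A2 region have no peak in the 3 untreated libraries of the NaBu experiment, and the AHRR region falls from 83.2 to 85.5 to 19.2 to 51.9 with NaBu.

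The other genes of the pathway were described from a list of 27 genes of cofactors, chaperones, related factors and further targets, 26 of which had a region, 504 in all. With NaPr, 10 of 246 tested regions were called higher (4.07%) and 15 lower (6.1%), and with NaBu 45 of 280 higher (16.1%) and 74 lower (26.4%), beside the shares of all regions given above. SLC7A5, an amino acid transporter and AHR target, had 4 lower and 0 higher of 21 tested with NaPr and 7 lower and 1 higher of 22 with NaBu. NEDD9, a scaffold protein, had 2 higher and 1 lower of 17 with NaPr and 3 higher and 6 lower of 20 with NaBu. HSP90AA1, a chaperone that holds AHR in the cytoplasm, had 5 lower and 0 higher of 11 with NaBu and no call with NaPr. The detoxification gene UGT1A6 had 7 lower and 2 higher of 14 with NaBu, the cytochrome gene CYP2S1 4 lower and 0 higher of 8, and the growth factor gene EREG 5 lower and 1 higher of 14. XDH, which encodes xanthine dehydrogenase, had 4 higher and 0 lower of 9. NFE2L2, the gene of NRF2, had 2 higher and 4 lower of 21.

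The start regions whose ranks were most like those of the AHR start over the 12 libraries, among 13686 start regions of protein-coding genes, were those of RASSF3 (Pearson r = 0.971), NUAK1 (0.955), ANKLE2 (0.95), LARP6 (0.945) and CYB5R2 (0.943). The points share the experiment and its depth, so the coefficients describe likeness only.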

How the data were processed

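Accessible regions were taken from 12 SW480 peak lists, 1 per library. Reads were aligned by the authors to GRCh38 (Bowtie2), and MACS2 gave the peaks of every library within an ENCODE pipeline. The submitters' processing notes name Bowtie2 2.3.1 and MACS2 2.1.0. For each summit the deposited lists give a fold enrichment (a ratio), a −log10 p and a −log10 q, with up to 300000 summits ranked by p. The authors tested reads with DiffBind, and the CT26 libraries and reads were not analysed here.

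Peak intervals overlapping by at least 1 bp were merged and placed on GENCODE 44. Percentile ranks by −log10 p were tested with limma 3.58.1 in R 4.3.3 (eBayes with trend). Ranks cannot show a shift of all peaks alike. Summit tags were recovered from fold and −log10 p (Poisson, pseudocount of 1, tolerance 0.05 tags) for 100.0% of summits. Both steps were tested on simulated data, but for the ranks every simulated region had a peak in every library. That simulation therefore does not cover regions without a listed peak. Its noise was a fixed spread not taken from these libraries, so it does not measure how well the calls hold here. The backgrounds simulated for the tags stayed below the highest local background of a named region (62.8 tags). Among replicate pairs at most 0.796% of intervals were identical.

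For each gene the start region, up to 6 called regions per experiment by size of change and the highest-ranked other region were named, for a gene without a call that of the smallest p, and pathway genes with at least 2 calls, some of which are not reported here. The 8 genes, lists and motifs were chosen with earlier results of these data known. Replicate numbers were not taken to pair libraries.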

Additional observations from a re-analysis of the deposited data

How the results depend on the processing

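NaPr calls at the 8 genes depended on the processing. Against 2 called regions there were 0 with ranks by fold enrichment, 0 without the eBayes trend, 1 with regions of at least 1 peak, 1 in the gene bodies alone or with 5 kb, 4 with 1 common limit of p, 5 with 50 kb and 8 in 1 fit of 12 libraries. Tags over background gave 5 and tags over the median 11. Percentiles among listed peaks, chosen after the data were seen, gave 4, and leaving out a library 0 to 1. For the other pathway genes the 25 calls became 7 by fold, 9 with at least 1 peak, 38 in 1 fit, 16 without trend, 16 among listed peaks, 14 by tags over background, 49 by tags over the median and 0 to 2 without a library. Across all regions, tags over background gave 8803 higher and 718 lower with NaPr and tags over the median 7978 and 12969, and leaving out any NaPr replicate gave 0 calls by limma, with 28873 to 29851 unadjusted p under 0.05.

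With the replicate number as a block, NaPr calls went to 0 at the 8 genes, 0 at the pathway genes and 0 of all 124067 regions by limma (29238 with an unadjusted p under 0.05), with the same differences at AHR (20.22) and ARNT (12.59). NaBu calls were 36 at the 8 genes, although the TIPARP start lost its call (adjusted p = 0.0581). Deviations of libraries with the same number correlated at 0.011 to 0.046 with NaPr and 0.007 to 0.022 with NaBu, not every library correlated best with its own number, and the numbers were not taken to pair libraries.

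The 36 NaBu calls were 20 for regions with a peak in all 6 libraries and 22 in the top 50000 intervals, where fewer regions can be tested, and 32 to 35 without a library. The pathway count of 119 became 60 and 54. For the 25 of the 36 called NaBu regions that were named, the only ones run under the alternatives, 372 values kept direction and call, 45 lost the call and 3 turned sign: TIPARP at the start (−0.06 by both tag scales) and CYP1A2 21955 bp past the start (−1.22 by fold). These 25 include the 7 regions gained and the 4 lost, whose calls follow from presence and absence. Their values are part of the 372, which is therefore no measure of stability. Regions not called gained a call in 11 values with NaPr and 6 with NaBu. By tags over the median the starts of AHR (−0.37), AHRR (−0.56), CYP1B1 (−0.50), TIPARP (−0.39) and NQO1 (−0.39) were lower with NaPr, and the CYP1A2 region 11114 bp past the start was higher under 3 alternatives (37.46 to 42.63). With NaBu the NQO1 start was lower by fold (−10.03), the ARNT region 18905 bp upstream higher by both tag scales (0.57), the ARNT start in the top 50000 intervals (2.19) and the CYP1A1 start among listed peaks (6.85) and without untreated replicate 1 (5.55). Signs turned with NaPr at CYP1A1 1304 bp into the gene (−0.41 by fold, and −1.69 to 5.87 without a library) and at its start (−0.53 to 3.32 without a library). With NaBu they turned at AHR 63528 bp upstream (−0.01, −0.07 and −0.06), the ARNT start (−0.02), CYP1A1 1304 bp in (−0.63 by fold), the CYP1B1 start (−0.07 and −0.06 by tags, −1.21 to 2.63 without a library, −0.33 without untreated replicate 3) and CYP1B1 39017 bp upstream (−0.75 by fold, −0.01 by tags, −1.88 to 2.53 without a library, −1.70 without untreated replicate 1). The cause was not tested. Every list ran to peak number 300000. The weakest listed −log10 p was 3.37 in the library with the lowest background pileup (0.936 tags) and 9.38 in that with the highest (3.03).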
